A study of Danio rerio with 8 samples.

Results

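The genes described here encode the proteasome and the enzymes that attach and remove ubiquitin, as measured in zebrafish whole ovary after feeding with TCDD, a chlorinated dioxin that activates the aryl hydrocarbon receptor. A member was any probe set whose single annotated symbol began with psma, psmb, psmc, psmd, psme, ube2, uba or usp, with a digit after the letters. The rule used no measured value and found 122 probe sets for 101 genes, of 10795 probe sets for 8793 genes with 1 symbol. AB strain females of 6 to 8 months were fed for 15 days with feed that carried 10, 40 or 100 ppb TCDD (ng per g of feed) in acetone, or acetone alone at 0 ppb. Equal RNA amounts from 5 fish per dose made up 1 pool, and the 4 pools were each read on 2 Affymetrix arrays. The 2 arrays of a pool are technical replicates, so the p-values measure the spread between arrays and not between fish.

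Ubiquitin is a small protein that is joined to other proteins as a tag. An activating enzyme (E1) charges it, a conjugating enzyme (E2) carries it, a ligase chooses the target, and deubiquitinases such as the USP family take it off again. Proteins tagged with suitable ubiquitin chains are unfolded by the ATPase base of the proteasome cap and cut inside a barrel-shaped core of alpha and beta rings. In oocytes, timed proteolysis by this system drives passage through the meiotic divisions, and the maternal store of its transcripts serves the early embryo.

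The ovary identity of the pools was checked on marker genes. The oocyte markers zp2.6 and zp3b (egg envelope), zar1, buc and bmp15 read above the tag controls (probe sets against sequences foreign to zebrafish) on all 8 arrays. From the same list, the sox3 probe sets did so on 0, 1 and 5 arrays and h1-10 on 7. Of the follicle cell markers, cyp19a1a, gsdf and cyp17a1 read above them on all 8 arrays, while amh did so on none, inhbb on 1 and fshr on 3. Between the arrays of a pool, values correlated across all probe sets at r of 0.981 to 0.992. cyp1a, the standard transcript of dioxin exposure, stood at 5.37 and 5.53 on the control arrays, at 7.27 to 8.75 on those of 10 and 40 ppb, and at 9.48 and 9.49 on those of 100 ppb. Levels are log2(intensity + 16) after quantile normalisation, and differences are log2 differences between pools. Where a gene or class has 3 differences or medians, they are those of 10, 40 and 100 ppb against 0 ppb, in that order. Levels of different probe sets are not set against each other. In whole-organ RNA, fewer cells of a type and less transcript per cell cannot be told apart.

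Few proteasome and ubiquitin genes passed a test between exposed and control ovaries. At 10 and 40 ppb none of 111 tested members passed an adjusted p of 0.05 in limma, beside 2.43% and 0.613% of the 9301 probe sets tested. At an unadjusted p under 0.05 there were 10 members (9.01%, against 15% of all tested probe sets) at 10 ppb and 8 (7.21%, against 11.7%) at 40 ppb. The same count at 100 ppb was 22 (19.8%, against 23.2%). At 100 ppb 6 members passed, 3 higher and 3 lower, which is 5.41% of members beside 5.17% of all tested probe sets. By direction the background was 2.13% higher and 3.04% lower. The share of members that passed at 100 ppb was close to the share of all tested probe sets. The members that passed were usp37 (2 probe sets) and ube2g1b as higher, and ube2wb, psmd9 and ube2v2 as lower. The usp37 probe set with the suffix _x_at was tested through its exposed arrays, so its call is no support of its own.

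The size of the differences was small over the whole set. The median over the 122 members was -0.018 at 10 ppb, 0.02 at 40 ppb and -0.02 at 100 ppb, against -0.011, 0.005 and 0.009 over all probe sets with 1 symbol. Within 0.25 of 0 in either direction lay 84.4%, 84.4% and 69.7% of members at the 3 doses, against 72.7%, 76.6% and 64.2% of all named probe sets. The median size of the gap between the arrays of one pool was 0.149, 0.16, 0.104 and 0.125 at 0, 10, 40 and 100 ppb, and the median size of the difference between pools was 0.112, 0.089 and 0.161 at 10, 40 and 100 ppb. A gap lies between single arrays and a difference between means of 2 arrays, so the sizes are not on one scale. The 95% interval of the difference lay within 1 log2 unit of 0 for 109, 110 and 109 of the 111 tested members. It lay within 0.5 for 69, 76 and 55 of them, so for the others differences beyond 0.5 are not excluded. The arrays do not show how far values differ between fish of a dose.

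**Figure D1:**
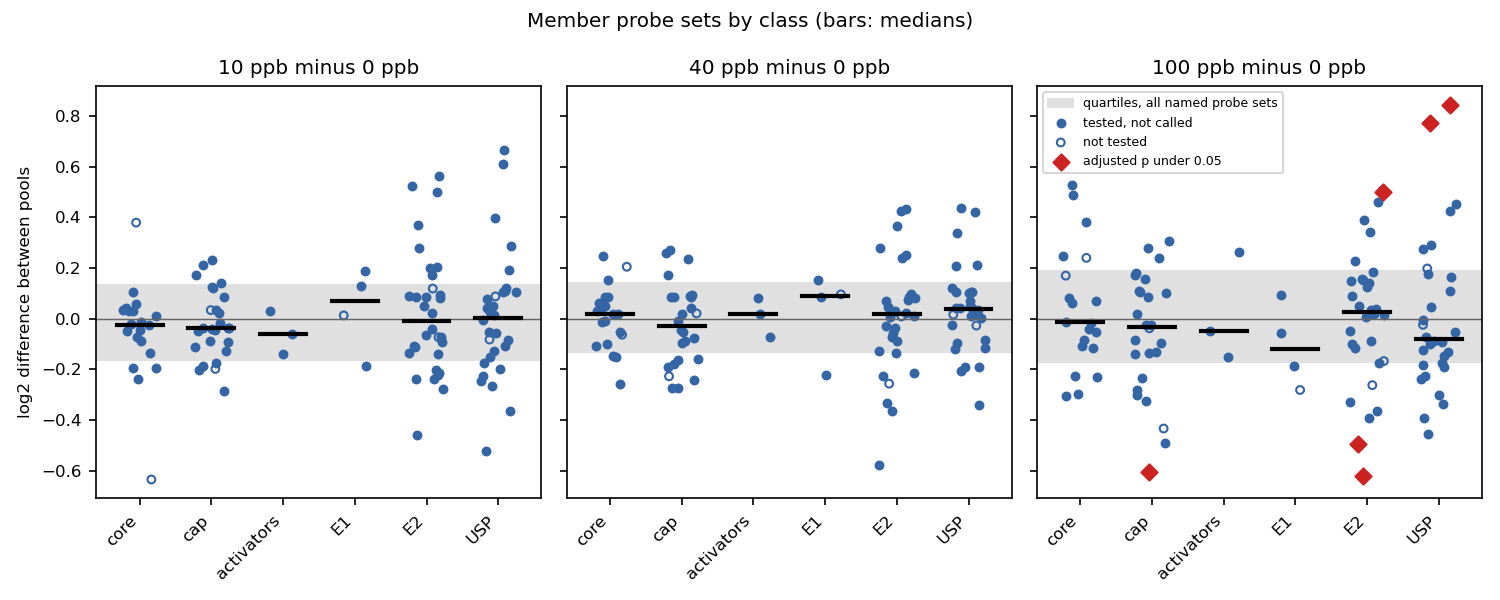
Log2 difference between each exposed pool and the control pool (y axis) for member probe sets by class (x axis), in 1 panel per dose; points are probe sets, black bars class medians, the grey band the quartiles of all named probe sets and red diamonds the members that passed (psmc3ip, psme3ip1 and usp6nl are not shown). The medians of the classes drawn, with the core as 1 class, lie inside the grey band at every dose, and the 6 diamonds stand at 100 ppb.

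The barrel-shaped core was represented by 20 probe sets, 18 of them tested, and none passed at any dose (background as above, for each dose). Its median difference was -0.023, 0.017 and -0.015 at 10, 40 and 100 ppb, and the intervals of all 18 tested probe sets lay within 1 log2 unit of 0 at each dose. Within 0.5 of 0 lay the intervals of 16, 15 and 11 of the 18. The outer alpha rings, which gate the entry to the barrel, had 8 probe sets with medians of -0.045, 0.017 and -0.08. psma1 read 9.44 and 9.40 at 0 ppb, 9.52 and 9.23 at 10 ppb, next 9.40 and 9.50 at 40 ppb, and finally 9.38 and 9.62 at 100 ppb. Exposed and control arrays of psma1 overlapped, with the 100 ppb array of replicate 2 the highest. psma4 was below both control arrays on all 6 exposed arrays, at 9.41 to 9.61 against 9.63 and 9.73, and did not pass (-0.193, -0.149 and -0.228). psma6l was too dim to be tested and read 4.19 and 4.75 at 10 ppb against 5.08 and 5.12 at 0 ppb.

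The constitutive beta subunits, among them the catalytic subunits psmb5, psmb6 and psmb7, had medians of -0.024, 0.047 and -0.013. psmb5, the chymotrypsin-like subunit, read 7.81 and 7.54 at 0 ppb, 7.58 and 7.38 at 10 ppb, then 7.64 and 7.84 at 40 ppb, followed by 7.31 and 7.43 at 100 ppb. Its 100 ppb arrays lay below both control arrays (-0.303, adjusted p = 0.253), while the 10 and 40 ppb arrays overlapped the controls. psmb6, the caspase-like subunit, differed by -0.136, -0.011 and -0.082. psmb7, the trypsin-like subunit, differed by 0.104, 0.047 and 0.062. psmb1, which has no peptidase activity of its own, differed by -0.012, 0.05 and 0.069. Neither these nor the other constitutive beta genes passed at a dose.

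The inducible beta subunits replace the catalytic ones in the immunoproteasome of immune and cytokine-treated cells. Their median difference over 5 probe sets was 0.03 at 10 ppb, -0.053 at 40 ppb and 0.381 at 100 ppb, the last outside the quartiles of all named probe sets (-0.171 to 0.187). Without replicate 2 of the control pool the 100 ppb median was 0.251, and it was 0.206 with a pseudocount of 64 in place of 16. psmb10, which takes the place of psmb7, read 6.95 and 6.83 at 0 ppb, 6.71 and 6.60 at 10 ppb, next 7.10 and 7.17 at 40 ppb, and finally 7.33 and 7.50 at 100 ppb. The 10 ppb arrays were the lowest and the 100 ppb arrays the highest, with no overlap between any 2 pools. Between 100 ppb and 10 ppb psmb10 rose by 0.763 ± 0.139 (SE, 2 arrays per pool; 1.7-fold, adjusted p = 0.0144). Without a block it was the only 1 of 111 members to pass in that comparison, beside 3.57% of all tested probe sets. Against the control pool it differed by 0.526 at 100 ppb (adjusted p = 0.0558), 0.248 at 40 ppb and -0.237 at 10 ppb, and none of these passed without a block. Replicate 1 of the 0, 40 and 100 ppb pools was run on one day, replicate 2 of all pools on another, and replicate 1 of the 10 ppb pool alone. Within the day of replicate 2, 100 ppb minus 10 ppb was 0.906, and 100 ppb minus 0 ppb was 0.674, against 0.378 on the day of replicate 1. Without either 100 ppb array, in the deposited scaling or with only the 2 compared pools in the fit, the call between 100 and 10 ppb was lost (adjusted p of 0.082 and 0.177 without 1 array, 0.999 and 0.106).

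psmb9a, which replaces psmb6, read 5.99 and 6.02 at 100 ppb against 5.76 and 5.49 at 0 ppb (0.381, adjusted p = 0.189). psmb12, a further inducible-type subunit of fish, read 6.73 and 6.84 at 100 ppb against 6.17 and 6.42 at 0 ppb (0.489, adjusted p = 0.165). For both genes the 100 ppb arrays lay above the arrays of every other pool. psmb8a, which replaces psmb5, read 5.47 and 5.10 at 100 ppb against 5.17 and 5.49 at 0 ppb and overlapped. psmb13a was not tested: it read above the tag controls on 5 of 8 arrays, and its 100 ppb arrays stood 0.884 apart. Between 100 and 40 ppb none of 111 members passed in limma (background 0.892%; 14 at an unadjusted p under 0.05), and psmb9a had the smallest adjusted p among them, 0.131.

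Leukocyte markers are given beside these genes, since immune cells express inducible subunits. The summed level of 18 leukocyte probe sets was 1249.6 and 1114.8 at 0 ppb, 875.7 and 780 at 10 ppb, then 844.8 and 737.6 at 40 ppb, followed by 713.1 and 727.7 at 100 ppb (intensity units after normalisation). Of 10 tested at 100 ppb, lyz passed as higher and marco, cpa5 and cd74b as lower (background 2.13% and 3.04%). Between 10 and 12 of the 18 read above the tag controls at 100 ppb, against 12 and 13 at 0 ppb, and csf1ra did so on no array and mpx on at most 3. The summed leukocyte level was lower on both 100 ppb arrays than on any other, and psmb10, psmb9a and psmb12 read highest there. The order of the sums depends on single markers, which went both ways between these pools. cpa5 read 5.47 and 5.39 at 100 ppb against 7.97 and 7.05 at 10 ppb. b2m, which is on the list but is not particular to leukocytes, read 8.21 and 7.98 at 100 ppb against 7.42 and 7.56 at 10 ppb. The sum is thus not a measure of leukocyte content alone. The part of leukocyte content in these differences was not tested.

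**Figure D2:**
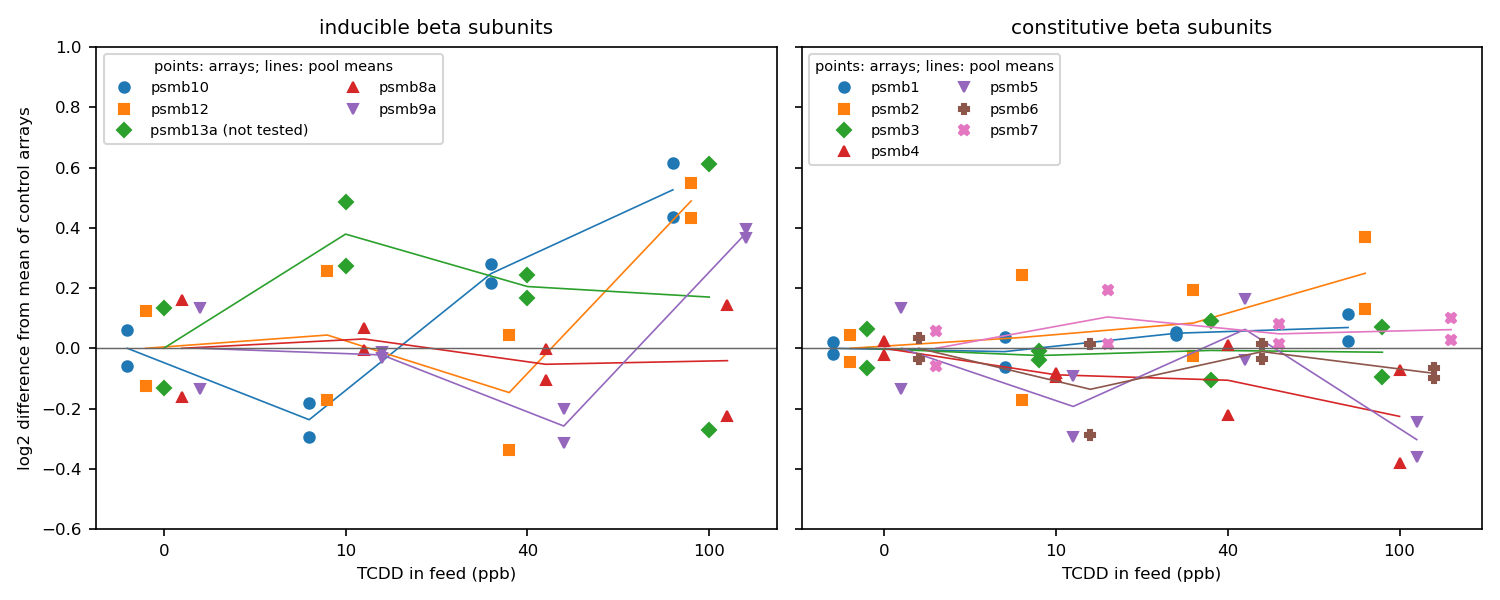
Log2 difference of each array from the mean of the 2 control arrays (y axis) by TCDD in feed in ppb (x axis, evenly spaced), for inducible (left) and constitutive (right) beta subunit genes; points are arrays and lines join pool means. At 100 ppb both arrays of psmb10, psmb12 and psmb9a stand above their controls, while psmb8a and the untested psmb13a spread to both sides of 0.

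The regulatory cap, which receives tagged proteins and unfolds them, had 26 probe sets, 24 of them tested, with medians of -0.038, -0.027 and -0.031 at 10, 40 and 100 ppb. The class was taken by symbol, so these counts and medians include the assembly chaperone genes psmd5, psmd9 and psmd10. At 10 and 40 ppb none passed, and at 100 ppb 1 of 24 did, psmd9, a share near the 5.17% of all tested probe sets. The ATPases of the base had medians of -0.015, 0.021 and 0.018 over 9 probe sets. psmc6 was the ATPase gene with all 6 exposed arrays on one side of the controls, at 9.12 to 9.20 against 9.34 and 9.38, and did not pass (-0.202, -0.189 and -0.233). psmc1a differed by -0.015, 0.041 and -0.133, and psmc2 by -0.036, 0.019 and 0.107. One psmc1b probe set was not tested, and the others differed by -0.138 and 0.24 at 100 ppb.

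psmd9 encodes a chaperone that helps the ATPase ring assemble and is absent from the finished proteasome. One of its 2 probe sets read 7.40 and 7.60 at 0 ppb, 7.30 and 7.12 at 10 ppb, next 7.27 and 7.24 at 40 ppb, and finally 6.82 and 6.97 at 100 ppb. Every exposed array lay below both control arrays, and the 100 ppb arrays lay below all others. At 100 ppb psmd9 fell by 0.603 ± 0.141 (1.52-fold lower, adjusted p = 0.0356), with -0.576 and -0.629 within the days of replicate 1 and replicate 2. The other psmd9 probe set differed by -0.301 and did not pass (adjusted p = 0.279). The other base chaperones among the members, psmd5 and psmd10, differed by 0.11 and 0.103.

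psmd8, a lid subunit needed to complete the cap, read 9.15 and 9.35 at 100 ppb against 9.74 and 9.74 at 0 ppb, with all 6 exposed arrays below the controls (-0.49, adjusted p = 0.0624). psmd7, another lid subunit, differed by -0.323 at 100 ppb. The ubiquitin receptor gene psmd4a differed by -0.088, -0.076 and -0.095, and the scaffold gene psmd1 by -0.135 and -0.024 at 100 ppb with its 2 probe sets. psmd11b differed by -0.173, 0.087 and 0.156. psmd2, the other large scaffold gene, had the widest gap between arrays of any member: 7.29 and 6.32 at 100 ppb. The intervals of all 24 tested cap probe sets lay within 1 log2 unit of 0 at each dose, and those of 18, 16 and 14 within 0.5.

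The activators psme1 and psme2, which form a ring that opens the core without ubiquitin, and psme3, the nuclear one, did not pass at a dose. psme1 read 6.28 and 6.21 at 100 ppb against 5.99 and 5.97 at 0 ppb, with no overlap (0.264, adjusted p = 0.305). psme2 read 5.52 and 6.45 at 10 ppb against 5.96 and 6.13 at 0 ppb, so its 10 ppb arrays stood on both sides of the controls. psme3 differed by 0.03, 0.02 and -0.049.

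**Figure D3:**
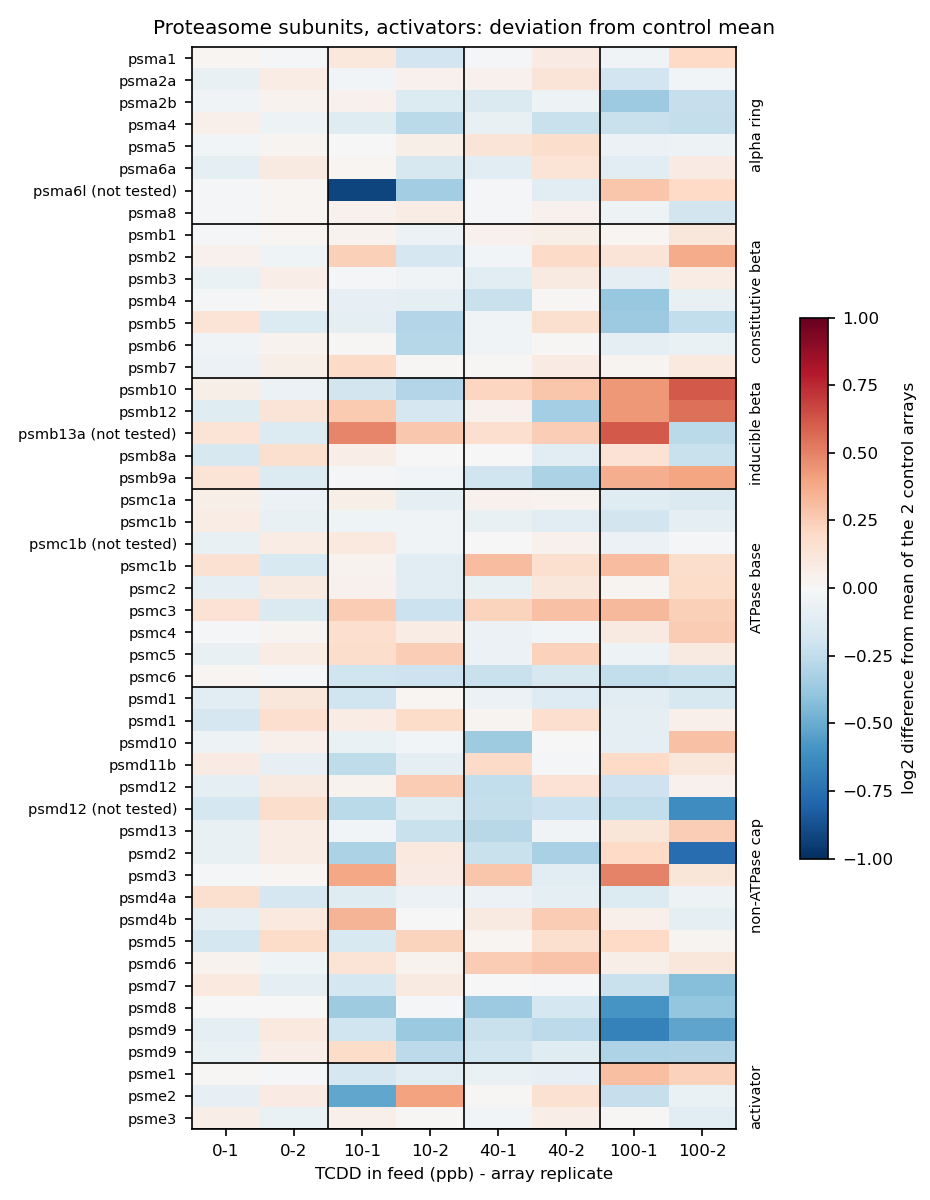
Proteasome core, cap and activator probe sets (rows, grouped by class) on each of the 8 arrays (columns, dose in ppb and array replicate); colour is the log2 difference from the mean of the 2 control arrays, red higher and blue lower, on a scale from -1 to 1. Most cells are pale, psmd8 and psmd9 are blue and psmb10, psmb12 and psmb9a red at 100 ppb, and psmd2 and psmb13a change colour between the 2 arrays of 100 ppb.

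None of the 3 tested activating enzymes passed at a dose. uba1, the main ubiquitin E1, read 9.15 and 9.19 at 0 ppb, 8.94 and 9.02 at 10 ppb, then 9.001 and 8.894 at 40 ppb, followed by 9.12 and 9.10 at 100 ppb. All 6 exposed arrays lay below both controls, by -0.188, -0.222 and -0.057 at 10, 40 and 100 ppb, and none of these passed. uba2, of the SUMO E1, differed by 0.129, 0.152 and -0.185, and uba3, of the NEDD8 E1, by 0.19, 0.084 and 0.092. uba7 was not tested.

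The conjugating enzymes had 32 probe sets for 27 genes, 30 of them tested, with medians of -0.008, 0.017 and 0.027 at 10, 40 and 100 ppb. None passed at 10 or 40 ppb, and at 100 ppb 1 passed as higher and 2 as lower, beside 2.13% and 3.04% of all tested probe sets. ube2g1b, whose human counterpart builds the chains that direct proteins to the proteasome, read 9.45 and 9.54 at 0 ppb, 9.71 and 9.83 at 10 ppb, next 9.83 and 9.66 at 40 ppb, and finally 10.09 and 9.89 at 100 ppb. All 6 exposed arrays were above both control arrays. At 100 ppb ube2g1b rose by 0.499 ± 0.114 (1.41-fold, adjusted p = 0.032), and by 0.648 and 0.351 within the days of replicate 1 and 2. A second ube2g1b probe set was not tested and read above the tag controls on 2 of 8 arrays.

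ube2wb belongs to the enzyme type that in humans puts ubiquitin on the amino end of proteins. It read 7.28 and 7.39 at 0 ppb, 7.14 and 7.09 at 10 ppb, then 6.98 and 7.02 at 40 ppb, followed by 6.71 and 6.72 at 100 ppb. Each higher dose lay below the one before it with no overlap of arrays. At 100 ppb ube2wb fell by 0.619 ± 0.131 (1.54-fold lower, adjusted p = 0.0249), with -0.568 and -0.67 within days. Over 4 pool means its slope per dose rank was -0.197 and did not pass (adjusted p = 0.294).

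ube2v2 encodes a variant without catalytic activity that pairs with the ube2n enzymes to build the chains used in DNA damage tolerance. It read 8.37 and 8.39 at 0 ppb, 8.13 and 8.15 at 10 ppb, next 8.15 and 8.15 at 40 ppb, and finally 7.88 and 7.88 at 100 ppb. The arrays of each pool lay close together, and all 6 exposed arrays were below both controls. At 100 ppb ube2v2 fell by 0.496 ± 0.111 (1.41-fold lower, adjusted p = 0.0301), with -0.488 and -0.504 within days. Its catalytic partners ube2na and ube2nb differed by 0.141 and 0.019, and the related variant ube2v1 by -0.086, and none of them passed.

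ube2t, which acts in the repair of DNA crosslinks, had the smallest adjusted p of any member at 10 and 40 ppb without passing. It read 9.21 and 9.20 at 0 ppb, 8.65 and 8.83 at 10 ppb, then 8.81 and 8.87 at 40 ppb, followed by 8.77 and 8.85 at 100 ppb. All 6 exposed arrays lay below both control arrays. The differences were -0.46, -0.363 and -0.392, with adjusted p of 0.0598, 0.225 and 0.0679. The ube2d genes, broadly used partners of ligases, had differences of both signs. ube2d1a differed by 0.522, 0.434 and 0.462 and ube2d2 by 0.561, 0.241 and 0.509, with all 6 exposed arrays of both above the controls, while ube2d1b differed by -0.216, -0.074 and -0.363 and ube2d3 by -0.066, -0.057 and 0.018. None of these passed. ube2kb differed by 0.498 at 10 ppb and by 0.091 at 100 ppb, and ube2l3a by -0.277 and -0.114. At 40 ppb other differences of separated arrays were 0.425 for ube2q2 and 0.364 for ube2e2 as higher. On 1 ube2e3 probe set, whose 40 ppb arrays stood 0.893 apart, the difference was -0.577. The other ube2e3 probe set differed there by -0.186 and 0.011 within the days of replicate 1 and 2. None passed.

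The deubiquitinases of the USP family had 30 probe sets for 23 genes, 28 of them tested, with medians of 0.003, 0.038 and -0.081. The 2 that passed, at 100 ppb and as higher (background 2.13%), both belong to usp37, whose human counterpart protects cyclin A from proteolysis at the start of DNA replication. The first of them read 5.79 and 5.97 at 0 ppb, 6.05 and 6.28 at 10 ppb, next 6.19 and 6.25 at 40 ppb, and finally 6.60 and 6.85 at 100 ppb. The second, with the suffix _x_at, read 5.12 and 5.09 at 0 ppb, 5.77 and 5.67 at 10 ppb, then 5.53 and 5.53 at 40 ppb, followed by 5.81 and 5.94 at 100 ppb. On both, all 6 exposed arrays lay above both control arrays, and the 100 ppb arrays were the highest. The control arrays of the second stood on either side of the filter value of 5.11, so it was tested through its exposed arrays.

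At 100 ppb usp37 rose by 0.844 ± 0.163 (1.8-fold, adjusted p = 0.0176) on the first probe set and by 0.77 ± 0.153 (1.71-fold, adjusted p = 0.0196) on the second. Within days the differences were 0.809 and 0.879 on the first and 0.69 and 0.85 on the second. These probe sets share a contig name, and the suffix of the second marks probes that may match other transcripts, so they are not independent measurements. The other usp37 probe sets, of another contig, differed by 0.292 and 0.426 and did not pass (adjusted p = 0.331 and 0.152). On both of these the control arrays stood apart, at 8.72 and 8.14 and at 8.09 and 7.64.

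usp7, which acts on the p53 ligase Mdm2 in mammals, differed by -0.456 at 100 ppb on 1 probe set (7.40 and 7.49 against 7.79 and 8.01 at 0 ppb, adjusted p = 0.0873) and by -0.098 on the other. usp14, a deubiquitinase bound to the proteasome cap, differed by 0.041, 0.042 and -0.072. At 10 ppb usp36, a nucleolar deubiquitinase, differed by 0.664 on 1 probe set and by -0.057 on the other, and usp10 by -0.522 and -0.365. usp16, a histone deubiquitinase, differed by 0.396, 0.436 and 0.453. None of these passed without a block. With array day as a block, which in effect leaves 1 array at 10 ppb, the first usp36 probe set differed by 1.017 there.

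**Figure D4:**
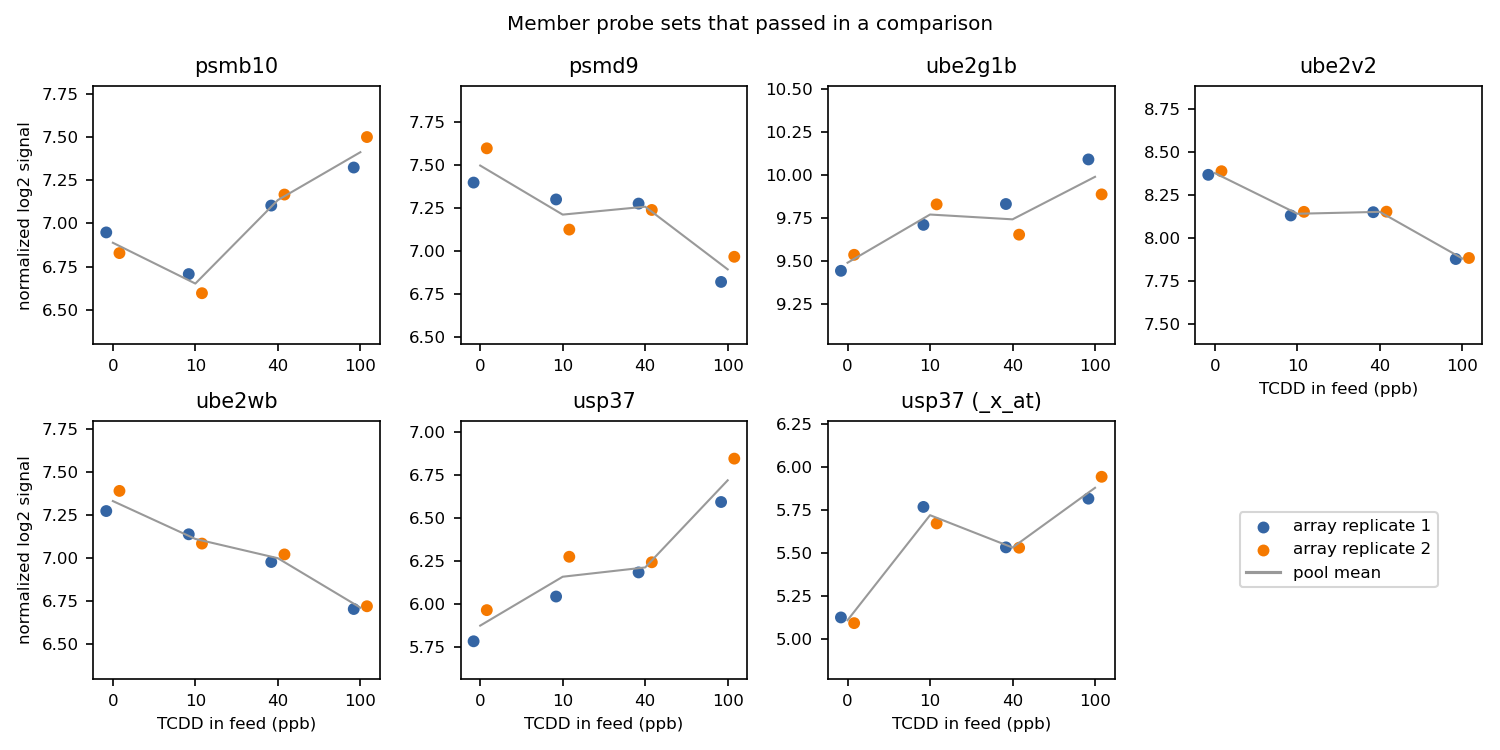
Normalised log2 level (y axis, of equal span in each panel) by TCDD in feed in ppb (x axis, evenly spaced) for the 7 member probe sets that passed in a comparison; points are the 2 arrays of a pool and the line joins pool means. psmd9, ube2v2 and ube2wb are lowest at 100 ppb, and psmb10, ube2g1b and both usp37 probe sets are highest there.

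With any 1 array of the control or the 100 ppb pool left out, the differences of the 6 called members kept about their size while no member passed in limma. The first usp37 probe set then differed by 0.731 to 0.963, the second by 0.72 to 0.828 and ube2g1b by 0.397 to 0.594. ube2wb differed by -0.674 to -0.567, psmd9 by -0.702 to -0.508 and ube2v2 by -0.508 to -0.489. A call needs arrays of a pool that agree, so a similar size with 1 array left follows from how these members were chosen. It adds no support for the differences. Why the calls were lost was not tested. The deposited scaling also gave 0 calls, beside 0.14% of all tested probe sets. Without either 10 ppb array 13 members passed (11.6% and 11.7%, against 13.8% and 14% of all tested probe sets). Without either 40 ppb array 2 members passed (1.8%, against 2.85% and 2.78%).

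With array day as a block, a term that pairs the control and 100 ppb arrays by day, 18 of 111 members passed at 100 ppb (16.2%, against 21.4% of all tested probe sets). They included the 6 above. This fit leaves fewer residual degrees of freedom than the 4 of the fit without a block. The further 12 were psmb10, ube2d2, ube2d1a, ube2q2 and another usp37 probe set as higher, with differences of 0.388 to 0.526, and psmd8, psmd7, psma2b, usp7, ube2t, ube2al and usp33 as lower, with differences of -0.49 to -0.296. psmb10 had an adjusted p of 0.0144 in this fit, psmd8, the lid subunit, 0.00376 and ube2t 0.00901. The core thus had 2 members past the threshold and the cap class 3, with the chaperone gene psmd9 among them. At 40 ppb ube2q2 (adjusted p = 0.0387) and ube2t (adjusted p = 0.0333) passed with this block, beside 4.64% of all tested probe sets, and between 100 and 40 ppb psmb9a passed as higher (0.639, adjusted p = 0.0382) and usp33 and ube2al as lower, beside 5.39%.

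Other cell markers differed at 100 ppb in the same arrays. Of all tested probe sets 2.13% passed as higher and 3.04% as lower at 100 ppb, and 0.495% as lower at 40 ppb. Of 9 epithelial probe sets, all above the tag controls on every array, 7 passed as lower and 1 as higher, with a median difference of -1.966. At 40 ppb 7 passed as lower too. Their summed level was 6214.5 and 6430.3 at 100 ppb against 7600.4 and 9548.1 at 0 ppb. Much of that sum came from 1 epcam probe set (12.32 and 12.37 at 100 ppb), which differed by 0.233 and did not pass. Both tested red blood cell probe sets passed as lower, hbaa1 by -1.24 and ca2 by -1.31. Those not tested went both ways: hbba2 differed by -1.009, slc4a1a by -0.175, alas2 by -0.034 and the other ca2 probe set by 0.237. The summed level of the 6 on the array was 189 and 202.6 at 100 ppb against 443.7 and 496 at 0 ppb. Much of that sum came from hbaa1 (8.46 and 8.58 at 0 ppb). Of 12 tested oocyte probe sets 2 passed as higher, among them nanos3, and of 4 tested follicle cell probe sets 1 did. At 10 ppb the summed level of 19 liver probe sets was 19529.3 and 5279.2 against 954.8 and 1024.5 at 0 ppb. The 2 arrays of the 10 ppb pool thus stood far apart on liver transcripts, as in 1 bhmt probe set at 10.90 and 8.85. Both arrays enter each comparison with that pool. The 3′ over 5′ signal ratio of the gapdh control probe sets, a measure of RNA integrity, was 0.949 and 1.06 at 100 ppb against 1.38 and 1.34 at 0 ppb. The part of these in the members' differences was not tested.

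**Figure D5:**
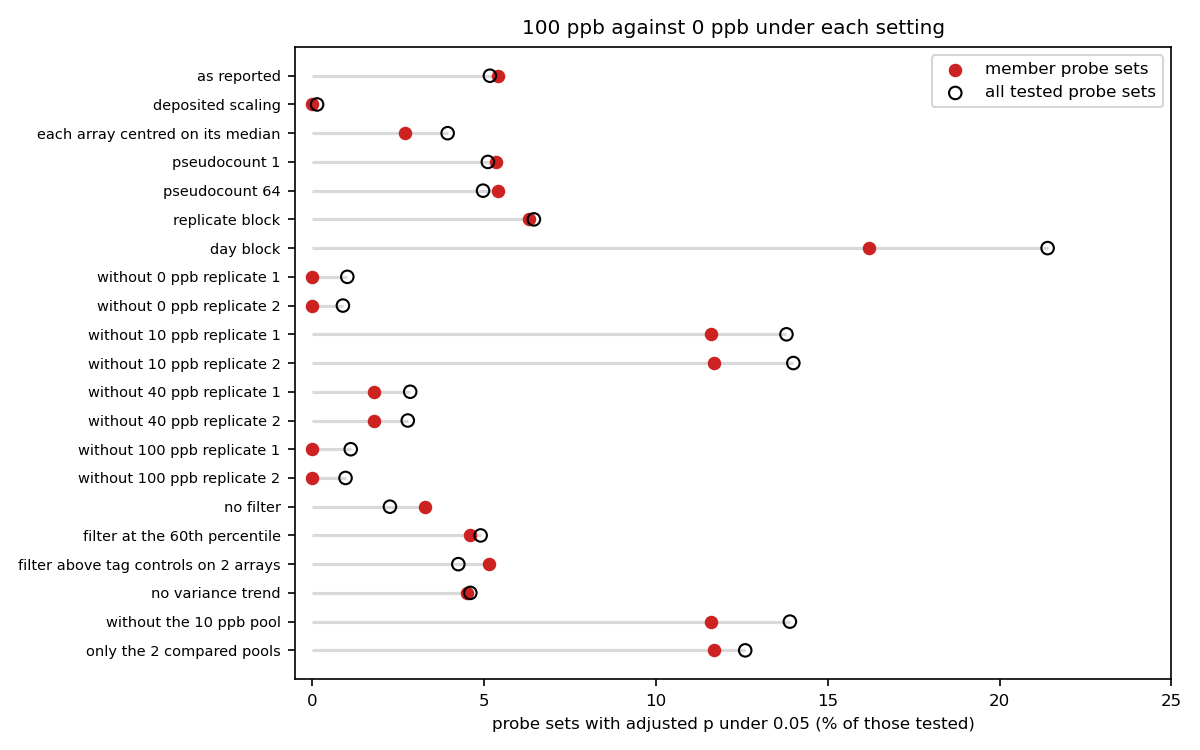
Share of member probe sets (red points) and of all tested probe sets (open circles) with an adjusted p under 0.05 at 100 ppb against 0 ppb, in percent (x axis), under each processing setting (y axis). With array day as a block the shares were 16.2% of members and 21.4% of all tested probe sets, and in the deposited scaling 0% and 0.14%. With 1 of the compared arrays left out the members were at 0% and all probe sets at 0.892% to 1.12%.

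The dose pools were also compared with each other, and fits were made on 1 mean per pool. Between 40 and 10 ppb none of 111 members passed in limma (background 1.47%; 4 at an unadjusted p under 0.05). With 1 mean per pool, the 3 exposed pools against the control pool gave 0 members and 0 of 9301 probe sets, with 4 members (3.6%) and 7.54% of probe sets at an unadjusted p under 0.05. The slope on dose rank gave 0 members beside 0.0215% of all probe sets, with 12 members (10.8%) and 12.2% of probe sets at an unadjusted p under 0.05. These fits on pool means leave 2 residual degrees of freedom. With 1 pool per dose, their residual includes differences between doses, and the spread between pools of a dose was not measured. All 6 exposed arrays lay on one side of both control arrays for 18 of 122 members (14.8%), 7 higher (background 6.76%) and 11 lower (background 8.55%), against 15.3% of all named probe sets in either direction. For single doses, both exposed arrays lay on one side of both controls for 38.5%, 37.7% and 53.3% of members at 10, 40 and 100 ppb, against 40.5%, 44.9% and 54.4% of all named probe sets.

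Related genes of the pathway, from a list of ligases, ubiquitin genes, assembly factors and other deubiquitinases that was drawn up by role with earlier results of these data known, were compared in the same way. Of 69 tested probe sets for 60 genes, 1 passed as higher and 1 as lower at 10 ppb (background 2.43% in either direction). None passed at 40 ppb (background 0.613%). At 100 ppb 2 passed as lower and none as higher (background 3.04% and 2.13%, or 5.17% in either direction). These counts were near or below the shares of all tested probe sets. At 10 ppb ufl1, the ligase of the ubiquitin-like protein UFM1, rose by 0.686 ± 0.119 (adjusted p = 0.013; 8.45 and 8.46 against 7.78 and 7.76 at 0 ppb). ubb, a polyubiquitin gene, fell by 0.701 on 1 probe set (adjusted p = 0.0253), while its other probe set differed by -0.158 and did not pass. At 100 ppb psmg3, a chaperone of core assembly, fell by 0.75 ± 0.166 (adjusted p = 0.0292; 7.50 and 7.65 against 8.21 and 8.43 at 0 ppb). uchl1, a deubiquitinase of another family, fell by 0.407 ± 0.095 (adjusted p = 0.0349). The core maturation factor pomp differed by -0.006, -0.013 and 0.141, and vcp, the ATPase that extracts tagged proteins, by -0.132, 0.038 and -0.056, and neither passed.

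The probe sets of 3 genes that the rule took by name encode neither subunits nor enzymes of ubiquitin: psmc3ip, a meiotic recombination factor, psme3ip1, named for binding the nuclear activator, and usp6nl, a regulator of Rab proteins. They were kept apart from the classes, and none of their 5 tested probe sets of 7 passed at a dose. psmc3ip differed by 0.062, -0.297 and -0.229 on the tested probe set, and the 4 psme3ip1 probe sets by 0.138 to 0.434 at 10 ppb and by -0.004 to 0.417 at 100 ppb.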

How the data were processed

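Total RNA of 4 ovary pools was hybridised on 8 arrays, 2 per pool. In the deposited table each probe set has 1 intensity for each array, a MAS5 signal per the submitters' processing notes. The version and scaling target of MAS5 were not stated there. Per the file headers, the deposited instrument files hold scanner and fluidics settings, a unit other than expression, and served to group arrays by day: replicate 1 of the 10 ppb pool alone, replicate 1 of the other pools, and replicate 2 of all pools. Trimmed mean intensities of 96.1 to 212 showed no common scale, so log2(intensity + 16) values were quantile normalised. Of 15617 probe sets, 115 controls were left out. Symbols came from the platform annotation (135 probe sets had several, 4572 none). The 9301 whose mean log2 value exceeded its 40th percentile (5.11) were tested: 111 members, with 11 not tested. This filter uses all arrays, so a member may pass through 1 pool.

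limma 3.58.1 in R 4.3.3 fitted the 4 group means over 8 arrays (eBayes with a variance trend, 4 residual degrees of freedom, 10.5 with the prior; Benjamini-Hochberg over all tested probe sets; adjusted p under 0.05, no minimum difference). Replicate numbers mark a shared array day for the 0, 40 and 100 ppb pools, per the file headers. Their same-numbered arrays deviated together (r of 0.143 to 0.298 over probe sets, against 0.0126 to 0.0464 with the 10 ppb pool). Array day was therefore also fitted as a block. Members whose call it changed are named for comparisons among the 0, 40 and 100 ppb pools. In comparisons with the 10 ppb pool, where it in effect leaves 1 array, its calls are not given, and usp36 is given by its difference only. Pool means were fitted for exposed against control and for dose rank. In data simulated for 100 against 0 ppb over 9301 probe sets, 20 of 100 changes of 0.5 and 93 of 100 changes of 1 were recovered. There were 8 false calls, and 2 calls between 40 and 10 ppb, where nothing was changed. The simulated noise was independent between arrays and few probe sets were changed, so these rates need not hold for the measured arrays. The tag control threshold is the 95th percentile of 17 such probe sets per array. Precision is limited by the number of arrays and pools. Members, lists and tests were chosen with earlier results of these data known. The classes set apart, the intervals and the one-side counts were added after values were seen.

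Named are members that passed, the 5 largest differences each way per dose among tested members with separated arrays, and the best known members; psmb12, psma4, psmc6, psmd2, psmd5, psmd7, psmd10, psma6l, psmb13a, psma2b, ube2al, usp33, ube2v1, ube2d1b and the related genes with values were named after their values were seen. Alternatives covered scaling, pseudocounts of 1 and 64, filters, blocks, single arrays, a minimum difference of 1, the pools in the fit and the variance trend.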

Additional observations from a re-analysis of the deposited data

How the results depend on the processing

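No passing result changed direction under the alternatives run, and the core, cap and E2 medians ran from -0.372 to 0.181 with changes of sign. The inducible beta median at 100 ppb (0.381) ran from 0.206 with pseudocount 64 to 0.528 with pseudocount 1, and from 0.251 to 0.438 without 1 array, settings chosen for it after seeing the data. Paired shares below are of members, then of all tested probe sets. Counts from fits that leave 1 array in a compared pool are left out. Members passing at 100 ppb (6) numbered 0 in the deposited scaling (0%, 0.14%) or with a minimum difference of 1 (0%, 1.25%). There were 3 with arrays centred on their medians (2.7%, 3.94%) and 18 with array day as a block (16.2%, 21.4%). Without the 10 ppb pool, a setting chosen after seeing the data, 13 passed (11.6%, 13.9%). With only the 2 compared pools 13 passed (11.7%, 12.6%). Without 1 array of the 10 or 40 ppb pool 2 to 13 passed (1.8% to 11.7%, 2.78% to 14%). At 10 ppb (0) there was 1 with the replicate block (0.901%, 2.78%) and 1 with no variance trend (0.901%, 2.33%). At 40 ppb (0) there were 2 with array day (1.8%, 4.64%). For 40 against 10 ppb the count stayed at 0 under the settings listed here. For 100 against 10 ppb (1) there were 0 in the deposited scaling, with a minimum difference of 1 or with only 2 pools, 10 with array day, 2 with the tag control filter and 0 to 5 without 1 array. For 100 against 40 ppb (0) there were 3 with array day (2.7%, 5.39%) and 1 without the 10 ppb pool (0.893%, 2.56%). With only 2 pools there was 1 (0.901%, 2.61%), and without either 10 ppb array 1 (0.893% and 0.901%, 2.55%). The day block in effect drops 10 ppb replicate 1, alone on its day.

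The deposited scaling shifted the median of all named probe sets by -0.27, 0.106 and -0.027 at 10, 40 and 100 ppb. There the core median was -0.334 and 0.181 at 10 and 40 ppb, the cap median -0.372, 0.112 and -0.085, and the E2 median -0.312, 0.13 and -0.028. Centring on medians gave 0.109 and 0.055 for core at 40 and 100 ppb, 0.039 for cap at 40 ppb, and 0.057 and 0.058 for E2. The median of all named probe sets was then 0.033 and 0.059 at 40 and 100 ppb. The day block gave -0.177 for core and 0.064 for E2 at 10 ppb, and 1 probe set per gene gave 0.05 for E2. Without 1 array the core median ran from -0.115 to 0.017 at 10 ppb, from -0.028 to 0.067 at 40 ppb and from -0.081 to 0.054 at 100 ppb. The cap median ran from -0.04 to 0.002, from -0.071 to -0.006 and from -0.074 to 0.04, and the E2 median from -0.06 to 0.026, from -0.007 to 0.044 and from 0.015 to 0.068. The causes were not tested. The replicate block over all 4 pools ties 10 ppb replicate 1 to a day it was not run on. It gave 7 calls at 100 ppb (6.31% of members, against 6.45% of all tested probe sets). Dim probe sets limit what can be seen: 11 members were not tested.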
